A study of Mus musculus with 12 samples.

Results

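The ATF4 integrated stress response was described through 10 genes, Atf4, Atf5, Ddit3, Trib3, Asns, Chac1, Sesn2, Ppp1r15a, Eif4ebp1 and Nupr1, chosen by their symbols among the 48795 genes of a liver RNA-seq table. All 10 had enough counts to be tested, among 13812 genes tested in all. The livers came from 12 female mice, each a separate animal, with 3 in each of 4 groups. All mice were 4 months old, ate normal chow, were littermates matched for age and sex, and carried the same batch label. Of the mice labelled Nts+/+, numbers 254, 257 and 323 ate ad libitum and numbers 265, 282 and 322 were fasted for 22 h. Of those labelled Nts-/-, 277, 303 and 319 ate ad libitum, whereas 284, 290 and 295 had the same fast. Nts encodes neurotensin, a gut peptide released in response to lipids, and the Nts-/- mice were whole-body knockouts bred from Nts+/- mice, so that no comparison here separates the liver from other organs. The groups asked what fasting changes in the liver and whether the labelled genotype alters it.

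The integrated stress response is a brake on protein synthesis that cells apply under amino acid shortage, endoplasmic reticulum (ER) stress, heme shortage or viral RNA. Each of these signals activates a kinase that phosphorylates the translation factor eIF2, which lowers general translation and, through short reading frames upstream of its coding sequence, raises the translation of Atf4 mRNA. ATF4 is a transcription factor of the bZIP family that binds composite C/EBP-ATF elements and turns on genes for amino acid synthesis, amino acid transport, redox balance and, under lasting stress, growth arrest and cell death. In the liver it links amino acid supply to hormones such as FGF21. Because ATF4 is controlled largely at translation, its mRNA level and its activity need not move together, and mRNA is what was measured here.

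The genes fall into 5 roles. Atf4, Atf5 and Ddit3 (CHOP) encode transcription factors, and Trib3 encodes a pseudokinase that binds ATF4, CHOP and AKT. Asns, asparagine synthetase, and Chac1, which breaks down glutathione, encode enzymes. Sesn2, Eif4ebp1 and Ppp1r15a encode controllers of growth and translation, namely a leucine-sensing inhibitor of mTORC1, the 4E-BP1 repressor of cap-dependent translation and the GADD34 subunit that directs dephosphorylation of eIF2. Nupr1 encodes a small chromatin-binding stress protein.

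A C/EBP-ATF response element (CARE, searched as TGATGNAA on either strand) lay in the promoter windows of 4 members, Trib3, Asns, Chac1 and Nupr1. Windows ran from 250 bases before to 50 bases after each start in RefSeq (GRCm38.p6), and 9 of the 10 members had an entry (Atf5 had 2), Eif4ebp1 being the member without a match in the table. Over all genes, 3.97% of 32851 windows, or 4.51% of genes, held the letters. The 120 bases around each match are shown 5′ to 3′ on the strand of the gene, because these are the members whose windows hold the letters ATF4 is known to bind, with the CARE letters in capitals. TGATGNAA reads TTNCATCA where the element lies on the opposite strand, as in Trib3, Chac1 and Nupr1. The stretches are chr2:152344039-152344158 (minus strand) for Trib3, chr6:7693188-7693307 (minus strand) for Asns, chr2:119350993-119351112 (plus strand) for Chac1 and chr7:126625517-126625636 (minus strand) for Nupr1.
Trib3: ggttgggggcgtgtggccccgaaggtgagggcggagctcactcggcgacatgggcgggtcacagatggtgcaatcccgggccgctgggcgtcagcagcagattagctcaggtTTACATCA
Asns: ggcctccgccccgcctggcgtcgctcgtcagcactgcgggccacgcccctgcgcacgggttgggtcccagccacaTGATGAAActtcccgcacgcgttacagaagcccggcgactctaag
Chac1: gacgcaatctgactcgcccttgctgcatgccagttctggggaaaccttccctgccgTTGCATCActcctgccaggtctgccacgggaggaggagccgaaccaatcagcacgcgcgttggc
Nupr1: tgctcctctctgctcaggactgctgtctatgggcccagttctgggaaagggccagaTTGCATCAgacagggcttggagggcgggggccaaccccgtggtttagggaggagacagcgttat

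With the start as position 1 and no position 0, the element ran from 15 to 22 in Trib3, from -23 to -16 in Asns, from -193 to -186 in Chac1 and from -110 to -103 in Nupr1. A cyclic AMP response element (TGACGTCA, which reads the same on both strands) was present in the window of Ppp1r15a alone among the members, against 1.79% of all windows. The ER stress response element (ERSE, searched on both strands as CCAAT and CCACG with 9 bases between them) was in none of the 9 members' windows, against 0.119% of all windows. A match is a description of letters, and its absence says only that the letters are not in this window.

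The libraries held from 21999647 to 45273069 counts, so that 3 counts, the floor used here, equalled from 0.0709 to 0.142 CPM, the unit of counts scaled to each library's TMM-adjusted total. This floor covers counting error only. Nts went against the labels: it had 0 counts in all 6 libraries labelled Nts+/+, and 46, 40 and 15 counts in the fed and 12, 4 and 18 counts in the fasted libraries labelled Nts-/-. The genotype is therefore given as labelled throughout. Hepatocyte markers (Alb, Apoa1, Ttr, Apoh, Cps1 and Ttc36) summed to between 104090 and 136553 CPM in every liver. Of 6 genes known to rise in the fasted liver, 5 passed the test as higher in fasted livers over both genotypes, and of 6 known to fall, 6 passed as lower. P-values measure the spread between mice.

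Per kilobase of transcript, Atf5 mRNA was the most abundant of the 10 and Asns the least. The median over 12 mice was 292 CPM per kilobase for Atf5, 46.7 for Atf4, 15.5 for Eif4ebp1, 5.14 for Ddit3, 4.21 for Ppp1r15a, 2.88 for Sesn2, 2.41 for Trib3, 0.787 for Nupr1, 0.539 for Chac1 and 0.0941 for Asns. The ranges over mice of Atf5 (186 to 473), Atf4 (34.8 to 55.7) and Eif4ebp1 (11.4 to 18.6) did not meet each other or that of Ddit3 (3.71 to 9.17). From Ddit3 downwards, each gene's range overlapped that of the next. All other levels below are in TMM-normalized CPM without division by length, and are compared between mice for the same gene.

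Fasting raised Trib3, Sesn2 and Atf5 and lowered Nupr1 when both genotypes were combined, while Atf4 itself did not pass the test. In all, 3 of 10 members passed as higher, against 16.0% of all tested genes, and 1 of 10 as lower, against 16.8%. In libraries labelled Nts+/+, 2 members passed as higher (8.91% of all genes) and 1 as lower (9.19%). In libraries labelled Nts-/-, 2 passed as higher (7.70%) and 0 as lower (9.14%). The median log2 fold change of the 10 members was 0.36 over both genotypes, 0.24 in Nts+/+ and 0.52 in Nts-/- libraries, against -0.01, -0.0032 and -0.01 for all tested genes. In bulk liver, fewer cells of a type and less RNA per cell cannot be told apart, so each difference is one of RNA in the whole tissue.

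**Figure D1:**
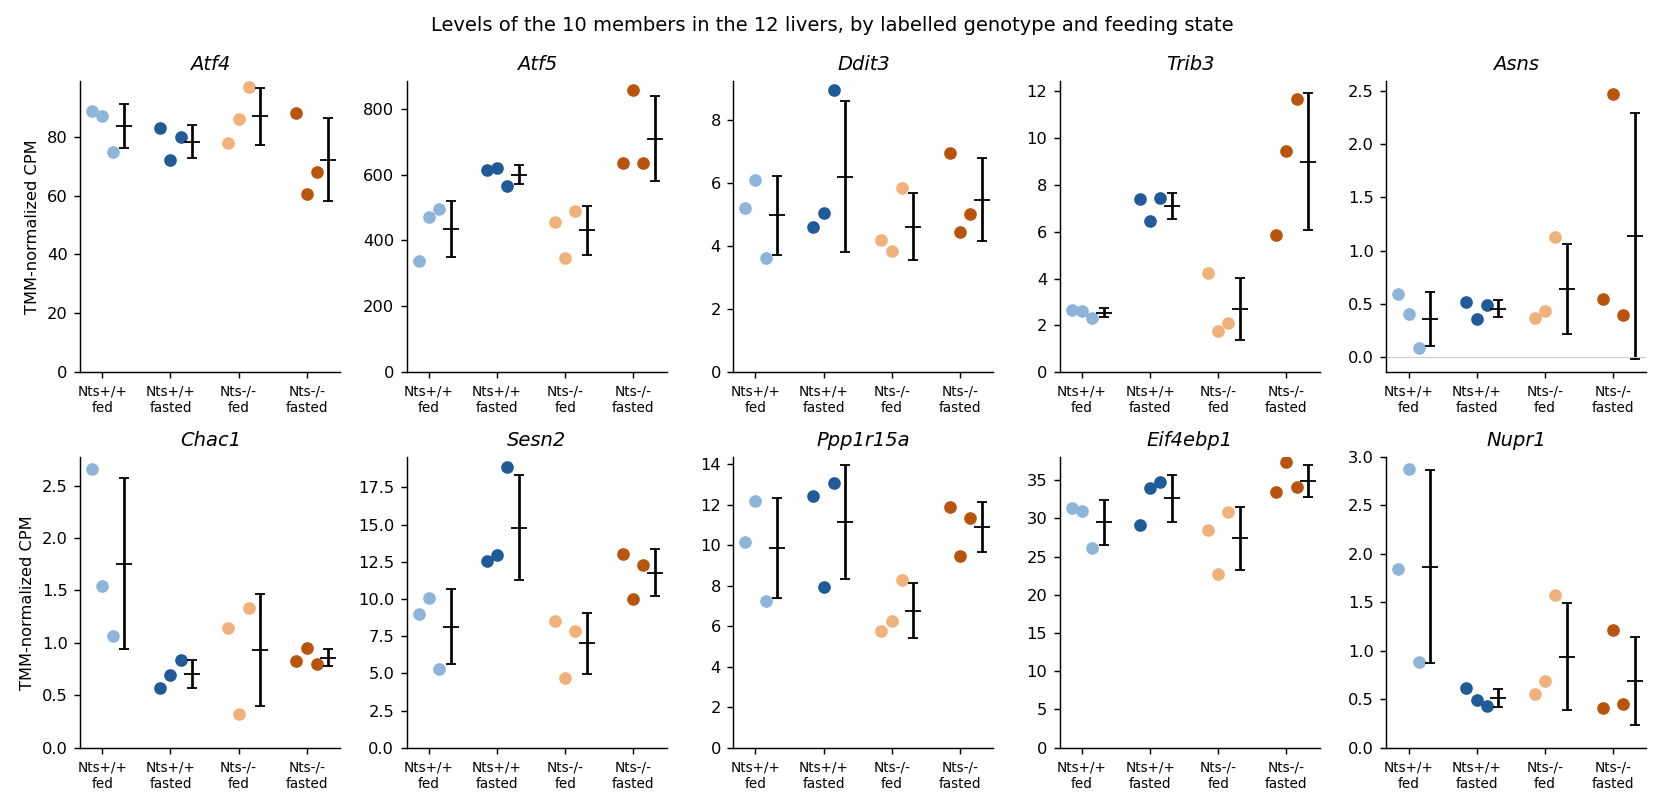
TMM-normalized CPM (y axis) of each member in each of the 12 livers (points), by labelled genotype and feeding state (x axis), with the mean and SD of the 3 mice of a group beside the points. Trib3 points of fasted livers lie above those of fed livers in both genotypes, Atf4 points overlap throughout, and Asns has 1 high point, at 2.47 CPM, in a fasted liver labelled Nts-/-.

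Among the transcription factors, Atf4 (chr15:80255184-80257540 in GRCm38) did not pass in any comparison. Its level ranged from 74.9 to 88.8 CPM in Nts+/+ fed, 72.2 to 83.0 in Nts+/+ fasted, 77.7 to 97.0 in Nts-/- fed and 60.6 to 88.0 in Nts-/- fasted livers. Fed and fasted values overlapped in both genotypes. The log2 fold change with fasting over both genotypes was -0.18 ± 0.10 (SE, n = 6 against 6 mice, adjusted p = 0.201), with a 95% interval of -0.40 to 0.04.

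Atf5 (chr7:44812256-44816658), a paralog of ATF4 that is likewise translated under eIF2 phosphorylation and abundant in liver, rose. It was 337, 472 and 496 CPM in Nts+/+ fed livers and 612, 621 and 566 in Nts+/+ fasted livers. In Nts-/- livers it was 456, 347 and 490 CPM fed and 634, 858 and 635 fasted. Every fasted liver lay above every fed liver of its genotype, and mouse 290 had the highest value. The log2 fold change was 0.46 ± 0.18 in Nts+/+ (adjusted p = 0.0950), which did not pass, 0.72 ± 0.18 in Nts-/- (adjusted p = 0.0165) and 0.59 ± 0.13 over both (adjusted p = 0.00338, a 1.51-fold rise). The call in Nts-/- livers was lost without mouse 303 (adjusted p = 0.0701) or mouse 290 (0.0795), whereas the combined call held without any single mouse. Atf5 overlaps Nup62, which had 243 to 670 counts per library, and Il4i1, and the strand setting of the counting is not given in the sources used here, so reads in the overlap cannot be assigned with certainty.

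Ddit3 (chr10:127290774-127296288), whose product CHOP drives the death-promoting side of the response, did not pass in any comparison. It ranged from 3.64 to 6.11 CPM in Nts+/+ fed, 4.60 to 8.98 in Nts+/+ fasted, 3.84 to 5.84 in Nts-/- fed and 4.46 to 6.96 in Nts-/- fasted livers, and the ranges overlapped. Its log2 fold change over both genotypes was 0.28 ± 0.20 (adjusted p = 0.303). Ddit3 overlaps Mars, with 955 to 2177 counts per library.

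Trib3 (chr2:152337422-152344032), whose product restrains ATF4 and AKT and which carries the CARE printed above just after its start, had the largest rise of the 10. It was 2.66, 2.61 and 2.31 CPM in Nts+/+ fed and 7.40, 6.48 and 7.46 in Nts+/+ fasted livers. Nts-/- livers had 4.23, 1.77 and 2.09 CPM fed and 5.86, 9.44 and 11.7 fasted. No fasted liver overlapped a fed liver. Trib3 rose 2.81-fold in Nts+/+ (log2 1.49 ± 0.31, adjusted p = 0.00557), 3.30-fold in Nts-/- (log2 1.72 ± 0.30, adjusted p = 0.00207) and 3.04-fold over both (log2 1.61 ± 0.21, adjusted p = 0.000115). These 3 calls held without any single mouse.

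The enzymes stood at low levels. Asns (chr6:7675169-7693254) was 0.591, 0.405 and 0.0887 CPM in Nts+/+ fed livers, the last being 2 counts, and 0.522, 0.364 and 0.488 in Nts+/+ fasted livers. The Nts-/- values were 0.370, 0.434 and 1.13 CPM fed and 0.550, 2.47 and 0.402 fasted. Groups overlapped throughout, and the 57 counts of mouse 290 stood apart from the 2 to 28 of the other 11 mice. The log2 fold change with fasting in Nts-/- was 0.82 ± 0.69 (adjusted p = 0.462) and turned to -0.43 without mouse 290. Over both genotypes it was 0.56 ± 0.53 (adjusted p = 0.448) and turned to -0.06 without that mouse. The Kupffer cell marker Marco, named after its values were seen, was also far higher in mouse 290, at 104 CPM against 3.69 to 38.0 in the others. The 6 Kupffer cell markers listed further below did not stand apart as a sum, at 404 CPM in mouse 290 against 201 to 483 in the others. Whether Marco has a part in the Asns value was not tested.

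Chac1 (chr2:119351229-119354381), an enzyme that cleaves glutathione and is a target of ATF4, was 2.66, 1.55 and 1.06 CPM in Nts+/+ fed livers and 0.569, 0.694 and 0.841 in Nts+/+ fasted livers. Livers labelled Nts-/- had 1.14, 0.326 and 1.33 CPM fed and 0.825, 0.953 and 0.803 fasted. The Nts+/+ fasted livers all lay below the fed livers, and the Nts-/- groups overlapped. The log2 fold change was -1.31 ± 0.45 in Nts+/+ (adjusted p = 0.0566), -0.12 ± 0.45 in Nts-/- (adjusted p = 0.888) and -0.71 ± 0.32 over both (adjusted p = 0.10). The Nts+/+ value passed in DESeq2 (adjusted p = 0.0415), in a fit of the 6 mice compared (0.0455), with no count filter (0.0481) and without mouse 323 (0.0344), and the combined value passed without mouse 303 (0.0167). The other alternatives at the same threshold gave no call.

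Among the controllers of growth and translation, Sesn2 (chr4:132492032-132510501) rose. It was 9.01, 10.1 and 5.32 CPM in Nts+/+ fed and 12.5, 13.0 and 18.8 in Nts+/+ fasted livers. For Nts-/- livers the values were 8.49, 4.67 and 7.86 CPM fed and 13.0, 10.0 and 12.3 fasted. Fasted livers lay above fed livers in both genotypes. The log2 fold change was 0.86 ± 0.26 in Nts+/+ (adjusted p = 0.0383), 0.75 ± 0.26 in Nts-/- (adjusted p = 0.0706), which passed only with DESeq2 among the alternatives at the same threshold (0.0334), and 0.80 ± 0.19 over both (adjusted p = 0.00528, a 1.74-fold rise). The Nts+/+ call was lost without mouse 254 (0.0838), 323 (0.103), 282 (0.0671) or 322 (0.129), with no count filter (0.0540) and in a fit of the 6 mice compared (0.0522), whereas the combined call held without any single mouse. The patterns over 12 mice most like that of Sesn2 were those of Zfp9, Brpf3 and Gpx3 (root mean square difference of centred log2 CPM 0.233, 0.248 and 0.250, against its own spread of 0.538), and those most like that of Atf5 were Cxcr4, Sec13 and 1110008F13Rik (0.147, 0.162 and 0.163, against 0.367).

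Ppp1r15a (chr7:45522916-45526268) and Eif4ebp1 (chr8:27260329-27276674) came close to the threshold. Ppp1r15a, which closes the response by restoring eIF2, ranged from 7.27 to 12.2 CPM in Nts+/+ fed, 7.93 to 13.1 in Nts+/+ fasted, 5.74 to 8.30 in Nts-/- fed and 9.48 to 11.9 in Nts-/- fasted livers. Its fed and fasted values overlapped in Nts+/+ but not in Nts-/- livers. The log2 fold change was 0.17 ± 0.22 in Nts+/+ (adjusted p = 0.634), 0.69 ± 0.23 in Nts-/- (adjusted p = 0.0511) and 0.43 ± 0.16 over both (adjusted p = 0.0516). Eif4ebp1 ranged from 26.1 to 31.4 CPM in Nts+/+ fed, 29.1 to 34.7 in Nts+/+ fasted, 22.8 to 30.8 in Nts-/- fed and 33.4 to 37.3 in Nts-/- fasted livers, with the same pattern of overlap. Its log2 fold change was 0.15 ± 0.13 in Nts+/+ (adjusted p = 0.479), 0.35 ± 0.13 in Nts-/- (adjusted p = 0.0819) and 0.25 ± 0.09 over both (adjusted p = 0.0540). Without mouse 319 both genes passed in Nts-/- livers, at adjusted p = 0.0289 for Ppp1r15a and 0.0408 for Eif4ebp1, and both passed over both genotypes (0.0267 and 0.0259). Over both genotypes Ppp1r15a also passed without mouse 257 (0.0299) or 282 (0.0186), Eif4ebp1 without mouse 265 (0.0361), and both with DESeq2 (0.0388 and 0.0435) and with RLE normalization (0.0477 and 0.0464). In Nts-/- livers Ppp1r15a passed under 5 further settings, among them DESeq2 (0.0266) and the fit of the 6 mice compared (0.0346).

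Nupr1 (chr7:126623249-126630861) was the only member that passed as lower with fasting. It was 1.85, 2.87 and 0.887 CPM in Nts+/+ fed and 0.617, 0.496 and 0.434 in Nts+/+ fasted livers. Those of Nts-/- livers were 0.556, 0.688 and 1.57 CPM fed and 0.412, 1.21 and 0.449 fasted. All Nts+/+ fasted livers lay below the fed ones, and the Nts-/- groups overlapped. Nupr1 was 3.67-fold lower with fasting in Nts+/+ (log2 -1.88 ± 0.53, adjusted p = 0.0270) and 2.23-fold lower over both genotypes (log2 -1.16 ± 0.38, adjusted p = 0.0302). In Nts-/- the log2 fold change was -0.44 ± 0.53 (adjusted p = 0.617) and turned to 0.13 without mouse 319. The Nts+/+ call rested on 13 to 78 counts per library and was lost without mouse 254 (0.0702), 257 (0.121), 265 (0.0542), 282 (0.0930) or 322 (0.0802). The combined call was lost without mouse 254 (0.0545), 257 (0.0876), 282 (0.0639), 322 (0.0646), 319 (0.0851), 284 (0.0708) or 295 (0.0732). The patterns most like that of Nupr1 were those of Batf, Tmsb10 and Tomm40l (root mean square difference 0.387, 0.443 and 0.457, against its own spread of 0.827).

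Some markers of other liver cells were also lower in fasted livers. The 6 Kupffer cell markers (Clec4f, Vsig4, Cd5l, Adgre1, Timd4 and Marco) summed to between 408 and 483 CPM in Nts+/+ fed, 201 and 349 in Nts+/+ fasted, 250 and 349 in Nts-/- fed and 261 and 404 in Nts-/- fasted livers, and none was at 0 in any mouse. With fasting in Nts+/+ livers, 6 of 6 had a negative log2 fold change and 1, Clec4f, passed (-0.86 ± 0.18, adjusted p = 0.00569). In Nts-/- livers 4 of the 6 had a positive value, 2 a negative one and 0 passed (median 0.11). Clec4f was lower there too, at 108 to 136 CPM in fed and 74.9 to 98.8 in fasted livers. Over both genotypes 5 of the 6 had a negative value and 1 passed as lower. The difference between the fasting responses was positive for all 6 and passed for 0. Of 5 stellate cell markers (Lrat, Reln, Dcn, Colec11 and Des), 5 had a negative log2 fold change over both genotypes and 3 passed, with Lrat at -0.84 ± 0.16, and they summed to between 218 and 282 CPM in fed and 202 and 233 in fasted livers. The 5 sinusoidal endothelial markers did not move one way: over both genotypes Clec4g, Oit3 and Fcgr2b passed as lower and Lyve1 as higher, with Lyve1 at 1.17 ± 0.24 in Nts+/+ livers (adjusted p = 0.00545). They summed to between 138 and 207 CPM in fed and 116 and 133 in fasted livers. The 5 cholangiocyte markers (Krt19, Krt7, Epcam, Sox9 and Spp1) summed to between 33.4 and 49.7 CPM in fed and 13.7 and 29.6 in fasted livers. Most of that sum was Spp1, at 27.6 to 43.5 CPM in fed and 10.7 to 25.4 in fasted livers. Of the 4 tested, all 4 had a negative log2 fold change over both genotypes and 1 passed. Within each genotype 1 of the 4 had a positive value. The part of these cells in the members' differences was not tested.

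**Figure D2:**
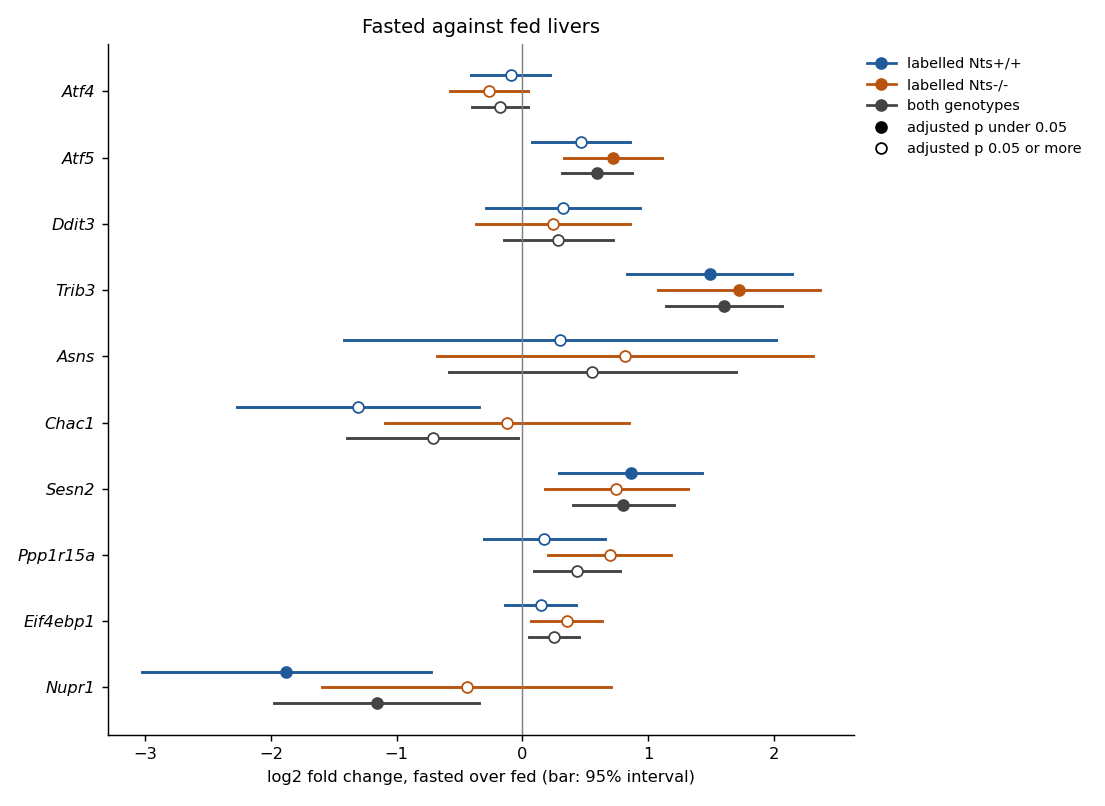
Log2 fold change of fasted over fed livers (x axis) for each member (y axis) in libraries labelled Nts+/+ (blue), Nts-/- (orange) and over both genotypes (grey), with 95% intervals as bars and filled points for adjusted p under 0.05. Trib3 is filled in all 3 comparisons, at 1.49, 1.72 and 1.61, whereas the Atf4 intervals all cross 0.

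Counted by overlap alone, 3 of 10 members had all 3 Nts+/+ fasted mice above all 3 fed mice (Atf5, Trib3 and Sesn2), against 18.1% of tested genes, and 2 had them all below (Chac1 and Nupr1), against 17.9%. In Nts-/- livers, 5 of 10 lay all above (Atf5, Trib3, Sesn2, Ppp1r15a and Eif4ebp1), against 17.1%, and 0 all below, against 18.1%.

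No member differed between the labelled genotypes by the test. In the fed, fasted and combined comparisons and in the difference between the fasting responses, 0 of 10 members passed, and 0% of all tested genes did. At an unadjusted p under 0.05, the count of members was 1 (Ppp1r15a) in fed livers and 0 in each of the other 3 comparisons, and over all genes it was 876, 685, 859 and 663. DESeq2 called 7, 1, 11 and 2 genes in all and no member among those it gave an adjusted p, which in fed livers left out 5 members, Ddit3, Trib3, Asns, Chac1 and Nupr1. Because Nts counts went against the labels, the direction of these differences is that of the labels only.

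In fed livers the differences of Nts-/- from Nts+/+ that lay farthest from 0 were those of Nupr1, at -1.02 (95% interval -2.10 to 0.06), Chac1, at -0.92 (-1.85 to 0.02), and Asns, at 0.76 (-0.91 to 2.43). Ppp1r15a was at -0.55 (-1.04 to -0.06, unadjusted p = 0.0299, adjusted p = 0.757). For Atf4 the interval was narrow, from -0.26 to 0.37, and for Atf5 it was -0.40 to 0.38. In fasted livers Asns was 1.28 higher on the log2 scale (-0.27 to 2.83), a value that became 0.03 without mouse 290. Atf5 was the only member with all 3 Nts-/- fasted mice above the 3 Nts+/+ ones, against 5.29% of tested genes, and 0 members lay all below, against 6.88%. The Atf5 difference in fasted livers was 0.24 (-0.15 to 0.63, adjusted p = 0.917).

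The fasting responses of Nupr1 and Chac1 differed most between genotypes without passing the test. The difference, Nts-/- minus Nts+/+, was 1.43 for Nupr1 (-0.19 to 3.06, unadjusted p = 0.0788, adjusted p = 0.897) and 1.19 for Chac1 (-0.18 to 2.55, unadjusted p = 0.0821, adjusted p = 0.897). For Trib3 it was 0.23 (-0.69 to 1.15), for Sesn2 -0.11 (-0.92 to 0.69) and for Atf4 -0.17 (-0.62 to 0.27). These intervals are wide enough to hold a change of more than 1.5-fold in either direction for Trib3 and Sesn2, so equal responses are not shown.

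**Figure D3:**
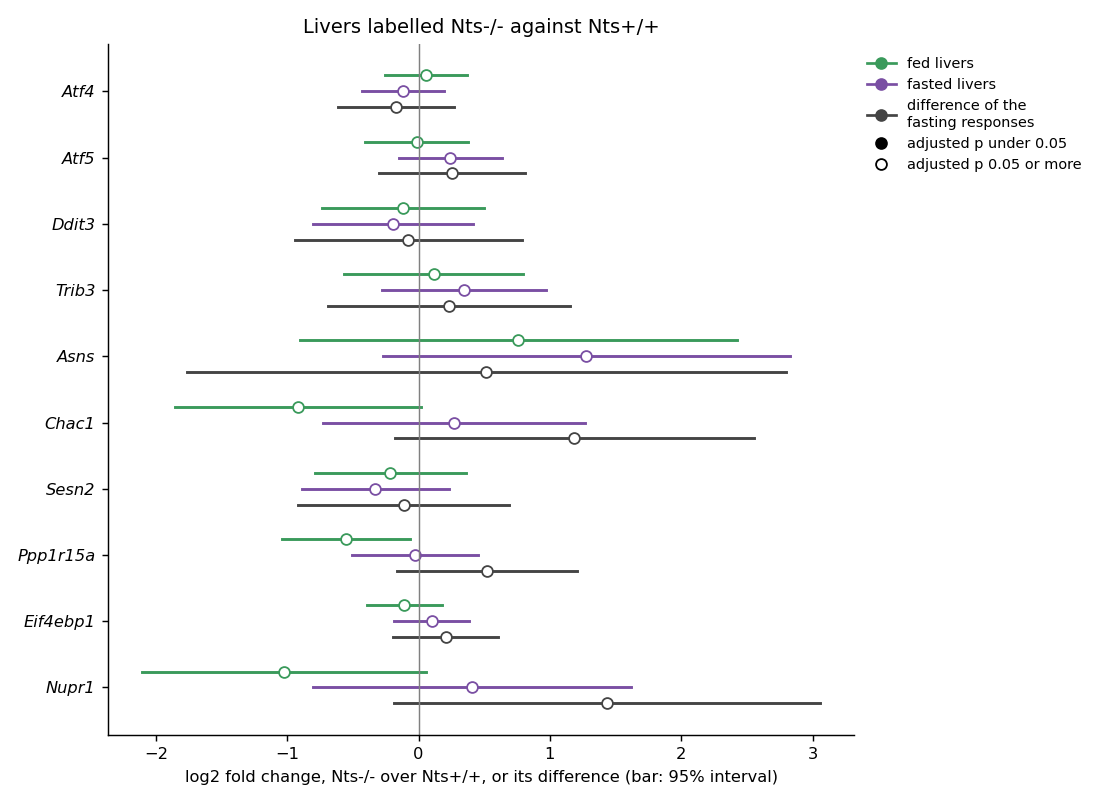
Log2 difference of libraries labelled Nts-/- from those labelled Nts+/+ (x axis) for each member (y axis) in fed livers (green), in fasted livers (purple) and as the difference of their fasting responses (grey), with 95% intervals as bars. No point is filled, since none had an adjusted p under 0.05, and the only interval that leaves out 0 is that of Ppp1r15a in fed livers, from -1.04 to -0.06.

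Some mice stood at the same end of their group for most members. Mouse 323 was the lowest of the Nts+/+ fed mice for 9 of 10 members, all but Atf5, and mouse 319 was the highest of the Nts-/- fed mice for 8 of 10, all but Trib3 and Sesn2. Mouse 322 was the highest Nts+/+ fasted mouse for 6 members. Library totals were 21999647 counts in mouse 323, the lowest of the 12, 24050989 in mouse 319 and 36018372 in mouse 322. The largest deviations from a group mean were those of Asns and Chac1, which also had the fewest counts along with Nupr1.

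**Figure D4:**
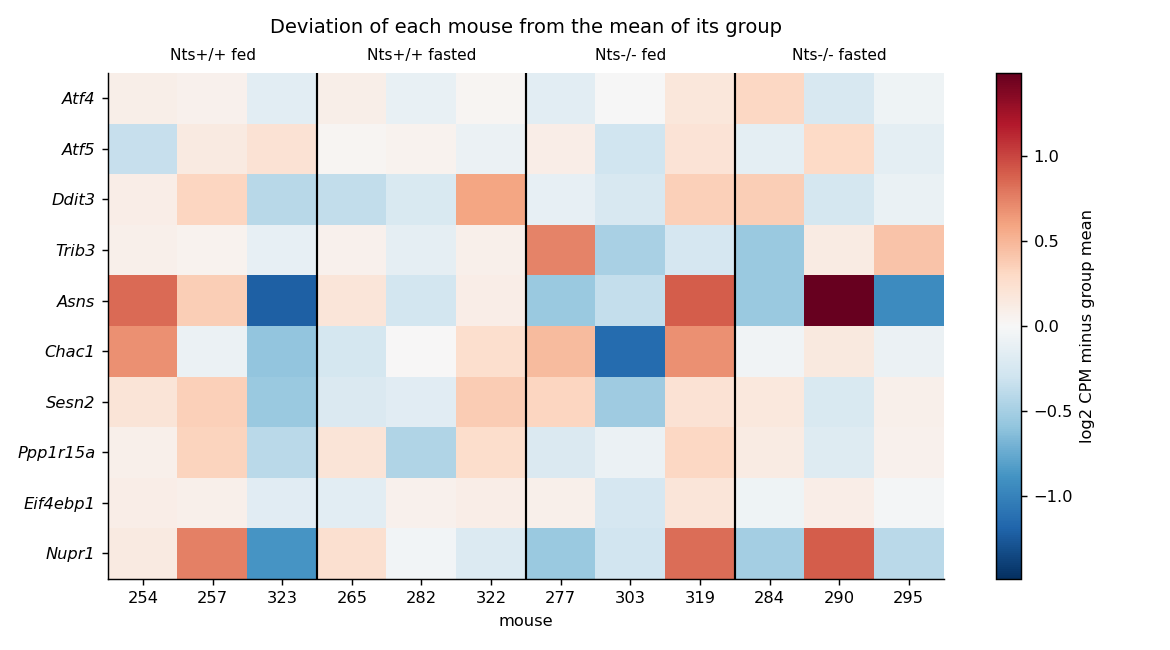
Log2 CPM of each member (rows) in each mouse (columns, by group) minus the mean of its group, from blue (below) to red (above). The column of mouse 323 is blue in all rows but Atf5, and that of mouse 319 is red in all rows but Trib3.

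Around these genes, 6 lists of the pathway were counted over both genotypes, where 16.0% of all tested genes passed as higher and 16.8% as lower. Of 16 genes of the eIF2 kinases and eIF2 machinery, 6 passed as higher and 1 as lower. The 3 of smallest p encode subunits of eIF2B, the factor that reloads eIF2 with GTP: Eif2b3 (log2 0.95 ± 0.12, adjusted p = 8.45e-05), Eif2b1 (0.51 ± 0.08, adjusted p = 0.000492) and Eif2b4 (0.43 ± 0.09, adjusted p = 0.00257). Eif2ak4, the GCN2 kinase that senses uncharged tRNA, fell (-0.61 ± 0.13, adjusted p = 0.00331). The other 3 kinases, named after their values were seen, were at 0.23 ± 0.07 for Eif2ak1 (HRI, adjusted p = 0.0299), -0.38 ± 0.14 for Eif2ak2 (PKR, 0.0547) and 0.24 ± 0.17 for Eif2ak3 (PERK, 0.301).

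Of 12 tested genes among 13 other ATF4-linked regulators and stress genes, 3 passed as higher and 1 as lower. Fgf21, the fasting hormone of the liver, was between 0.869 and 4.21 CPM in fed and between 18.2 and 25.4 in fasted livers, a 7.80-fold rise (log2 2.96 ± 0.29, adjusted p = 4.23e-05). Gadd45b rose by 1.88 ± 0.32 (adjusted p = 0.00130) and Cebpb, a bZIP partner of ATF4, by 1.14 ± 0.25 (adjusted p = 0.00528). Gadd45a, which like Gadd45b encodes a growth arrest protein, fell (-1.33 ± 0.29, adjusted p = 0.00368). Stc2 was not tested, with at most 2 counts in a library.

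Enzymes of serine, one-carbon and amino acid synthesis moved both ways, with 4 of 13 higher and 5 lower. Got1 and Gpt2, which encode aminotransferases, rose by 1.16 ± 0.18 (adjusted p = 0.000325) and 1.12 ± 0.18 (adjusted p = 0.000529), and Psat1 of serine synthesis rose by 0.87 ± 0.22 (adjusted p = 0.00766). Pycr1 of proline synthesis (-2.11 ± 0.45, adjusted p = 0.00179), Aldh1l2 of mitochondrial folate metabolism (-2.27 ± 0.52, adjusted p = 0.00285) and Cbs of the transsulfuration pathway (-0.59 ± 0.16, adjusted p = 0.0122) fell. Pycr1, Aldh1l2 and Psat1 stayed at or below 1.22 CPM in every liver, whereas Got1, Gpt2 and Cbs exceeded 200 CPM in every liver. In fasted livers Pycr1 was at 0.0271 to 0.142 CPM and Aldh1l2 at 0 to 0.190 CPM. Both were near the floor of 3 counts there, so the size of their falls is uncertain.

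Of 8 amino acid transporters tested from a list of 10, 2 passed as higher, namely Slc3a2, the heavy chain of heteromeric transporters (0.37 ± 0.10, adjusted p = 0.0120), and Slc36a4 (0.53 ± 0.15, adjusted p = 0.0152). Slc1a4, a neutral amino acid carrier, fell (-1.83 ± 0.21, adjusted p = 3.58e-05). Slc7a3 and Slc7a11 were not tested, with at most 1 and 3 counts in a library.

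Of 20 cytosolic aminoacyl-tRNA synthetases, 3 passed as higher and 2 as lower. Lars (0.67 ± 0.10, adjusted p = 0.000263), Gars (0.44 ± 0.08, adjusted p = 0.00102) and Farsa (0.38 ± 0.13, adjusted p = 0.0373), for leucine, glycine and phenylalanine, rose, and Cars (-0.81 ± 0.13, adjusted p = 0.000395) and Tars (-0.48 ± 0.10, adjusted p = 0.00193), for cysteine and threonine, fell. Of 20 genes of the IRE1 and ATF6 arms of the ER stress response, 1 passed as higher, Sel1l (0.39 ± 0.14, adjusted p = 0.0421), and 3 as lower, namely Edem1 (-0.43 ± 0.10, adjusted p = 0.00585), Ern1, which encodes IRE1 (-0.34 ± 0.12, adjusted p = 0.0412), and Pdia6, a disulfide isomerase (-0.84 ± 0.28, adjusted p = 0.0418).

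**Figure D5:**
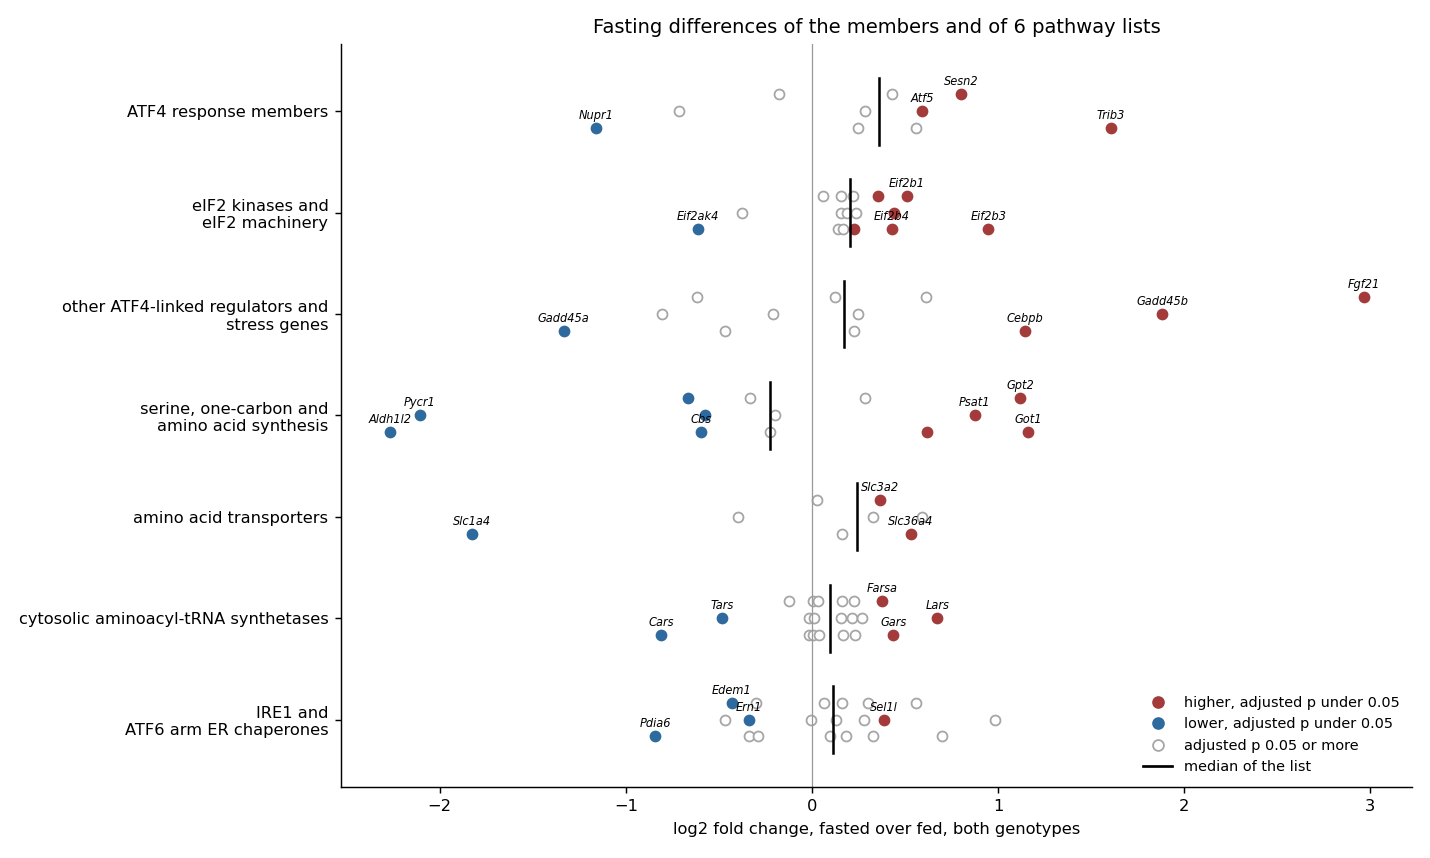
Log2 fold change of fasted over fed livers, both genotypes combined (x axis), of the tested genes of the 10 members and of 6 pathway lists (y axis), with points spread vertically for legibility and a bar at each list's median. Red points passed as higher, blue points as lower and open points did not pass. Fgf21, at 2.96, lies farthest to the right. Aldh1l2, at -2.27 and near the floor of counts in fasted livers, lies farthest to the left.

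The list medians with fasting over both genotypes were 0.21 for the eIF2 machinery, 0.17 for the other regulators, -0.22 for amino acid synthesis, 0.24 for the transporters, 0.10 for the synthetases and 0.11 for the ER genes, against -0.01 for all tested genes. Between the labelled genotypes, 0 genes of the 6 lists passed in any comparison. In fasted livers 17 of 20 ER genes and 8 of 8 transporters had a negative log2 fold change in Nts-/- relative to Nts+/+ libraries, with medians of -0.15 and -0.26 against -0.01 for all genes, a description of genes that are not independent of each other. In fed livers 7 of 20 ER genes and 4 of 8 transporters had a negative value, with medians of 0.03 and -0.07. Among the Nts+/+ fasted mice, mouse 322 lay far above the others for the ER genes Creld2, at 119 CPM against 25.5 and 29.3, and Hspa5, at 1690 CPM against 762 and 732, and the fasted counts include it.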

How the data were processed

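The authors deposited a single table of expected counts, the estimated number of reads of each gene, with fractions and with no scaling between mice. The submitters' processing notes name Trimmomatic, RSEM and GRCm38. The aligner, the versions and the strand setting are not given in the sources used here. They were rounded and analysed with edgeR 4.0.16 in R 4.3.3, where filterByExpr left 13812 genes, TMM set the scale and a robust quasi-likelihood model held 1 mean per group over 12 mice. Adjusted p is the Benjamini-Hochberg value over all tested genes, with 0.05 as the threshold. SE and 95% intervals were computed from the same fit. The per-sample columns of other samples numbered 0. The steps were tested on simulated counts, with changes set only in Nts+/+ fasted libraries and outside the genes of fewest counts. The outcome is not given here, and no genotype comparison was part of it.

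The members and lists were chosen with earlier results of these data known. Genes named beside the members were the 3 higher and 3 lower of smallest p in each list, and, for members that passed with fasting, the 3 genes of most similar pattern, which for Trib3 are not reported here. Lengths per transcript came from GENCODE vM39, matched by Ensembl identifier for all 10 members, and promoters from RefSeq. Alternatives were leaving out each mouse, DESeq2 1.42.0 (Wald test), RLE or upper-quartile scaling, a filter of 10 counts per mouse or none, a fit of only the groups compared, leaving out mitochondrially encoded genes, a threshold of 0.10 and a shorter promoter window.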

Additional observations from a re-analysis of the deposited data

How the results depend on the processing

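With leave-one-out fits, the number of members passing with fasting ranged from 1 to 3 in Nts+/+, from 1 to 4 in Nts-/- and from 3 to 5 over both genotypes. At an adjusted p under 0.10 it was 5 in Nts+/+ and 5 in Nts-/-, and the DESeq2 Wald test gave 4 in Nts-/-. More of all genes are called at 0.10 and with DESeq2 too. The share of all genes called in the leave-one-out fits is not given here. In Nts-/- livers DESeq2 called 2760 genes in all, against 2326 in the main fit, and the total at 0.10 is not given here. In each genotype comparison the number of members passing was 0 among the members that each alternative tested. Over the 7 comparisons, 1109 alternative values of single members were computed, of which 0 reversed a call, 20 lost one, 30 gained one and 43 changed sign while passing in neither fit. With at least 10 counts in every mouse, Asns, Chac1 and Nupr1 could not be tested, and in the fed genotype comparison DESeq2 gave no adjusted p for those 3 or for Ddit3 and Trib3. In the promoter window from 100 bases before to 50 after the start, 2 members held a CARE, Asns and Trib3, against 2.07% of all windows. Each mouse number belongs to a single mouse, so no number is shared between groups. The mice were littermates, but the sample labels do not give the litter of each mouse. No paired analysis by mouse or litter was therefore possible. Depth limits Asns, Chac1 and Nupr1, with 2 to 78 counts per library.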

Other observations

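Some stress genes of the lists, named here after their values were seen, had the larger negative difference in Nts-/- libraries, where Nupr1 and Chac1 had the smaller. The list of other ATF4-linked regulators and stress genes, which holds Gdf15, did not move one way. Of its 12 tested genes, 5 had a positive and 7 a negative difference between the fasting responses, and 0 had an unadjusted p under 0.05. The median was -0.024, against -0.020 for all tested genes. Gdf15, a stress hormone, had a log2 fold change with fasting of 0.20 ± 0.51 in Nts+/+ (adjusted p = 0.822) and -1.44 ± 0.53 in Nts-/- libraries (adjusted p = 0.0933), a difference of -1.64 ± 0.74 (unadjusted p = 0.0501, adjusted p = 0.897). Ddit4, an inhibitor of mTORC1, was at -0.38 ± 0.43 and -1.23 ± 0.43 (adjusted p = 0.577 and 0.0755).

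In mouse 322, which had the highest Ddit3 and Sesn2 values of all 12 livers, the ER stress gene Creld2 was at 119 CPM, against 16.2 to 56.3 CPM in the other mice. The chaperone gene Hspa5 was at 1690 CPM in mouse 322, against 503 to 1187 CPM in the others.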
